A study of Mus musculus with 12 samples.

Results

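The effect of *Snx14* knockout that cerebellum and cerebral cortex have in common was measured over all 12 libraries of the series, 3 for each tissue and genotype. RNA-Seq was done on cerebellum and cortex of 3 WT and 3 *Snx14*-KO mice aged 1 month, and the mouse named in each label ties a cerebellum to the cortex of the same mouse. The knockout is a single frameshifting deletion allele made with Cas9 in C57BL/6J embryos and backcrossed to C57BL/6J, so the genotype rests on a single line, and the deletion is present in all cells of the mouse. No treatment was given. The knockout effect was fitted as 1 term beside a term for tissue by the quasi-likelihood method of edgeR, which gives each standard error (SE) and adjusted p below unless another tool is named, and the 2 within-tissue effects from a fit of the 4 groups show whether they point the same way. A log2 fold change is *Snx14*-KO over WT throughout, and levels are library-size-scaled counts after TMM normalization (CPM), which are not divided by gene length. The model treats the 12 libraries as independent, so its p-values measure the spread between libraries. Fits that take account of the mouse are given beside the edgeR calls they change.

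*Snx14* encodes a sorting nexin of the endoplasmic reticulum, which holds a PX domain and an RGS domain and sits where this organelle meets lipid droplets. Loss of the gene in people causes a childhood cerebellar ataxia in which Purkinje cells are lost. Bulk tissue RNA mixes neurons, glia, vessels, microglia and whatever meninges and choroid plexus were left on the tissue at dissection. In such RNA, fewer cells of a type and less RNA per cell cannot be told apart.

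The libraries held 16672589 to 19887427 counts on genes, and 19380 genes had enough counts to be tested. Counts of *Xist* and of Y-linked genes gave the same sex for both tissues of every mouse, and in each genotype mouse 1 differed in sex from mice 2 and 3. Of the 12 libraries, *Snx14*-KO cortex 2 stood apart in meningeal and oligodendrocyte genes and *Snx14*-KO cerebellum 3 in microglial genes, and values without these 2, meant below by the libraries that stood apart, are given beside several of the results. WT cerebellum 1 was the lowest cerebellum in choroid plexus and meningeal genes, whose mean log2 levels were -2.71 and -0.89 from the tissue average. Without that library the only gene called was *Snx14*, as in 12 of the 18 settings that left out 1 library or mouse. Among marker genes, the summed levels were as the labels would have them for Purkinje cells, at 9312 to 13148 CPM in cerebellum and 1548 to 1792 CPM in cortex, and for forebrain excitatory neurons, at 478 to 645 CPM in cerebellum and 6785 to 7750 CPM in cortex.

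*Snx14*, the targeted gene, was lower in every *Snx14*-KO library. The gene spans bases 88376750 to 88438958 of chromosome 9 (GRCm38, minus strand). In cerebellum it was at 63.8, 63.5 and 66.9 CPM in the WT mice and at 10.4, 10.9 and 11.2 CPM in the *Snx14*-KO mice. In cortex it was at 53.5, 55.0 and 59.8 CPM in the WT and at 8.49, 7.95 and 7.68 CPM in the *Snx14*-KO mice. The groups were far apart in both tissues. The common log2 fold change was -2.69 (SE 0.0616, edgeR adjusted p = 1.32e-12), with -2.58 in cerebellum and -2.80 in cortex. The other 3 members of its family of RGS and PX domain sorting nexins, *Snx13*, *Snx19* and *Snx25*, did not pass the test, with common log2 fold changes of -0.03, -0.02 and -0.05.

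Beside *Snx14*, 4 genes passed an adjusted p of 0.05 for the common effect, and each had a log2 fold change of more than 0.50 in size. *Ptgds* and *Eln* were upregulated, which makes 2 genes or 0.0103% of those tested. *Snx14*, *Gm20537* and *Cyp2j12* were downregulated, which makes 3 genes or 0.0155%. At an unadjusted p under 0.05, 898 genes were higher (4.63%) and 656 lower (3.38%). DESeq2, the tool the study used, called 55 genes higher (0.284%) and 34 lower (0.175%) at an adjusted p of 0.05, and all 5 genes were among them.

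*Ptgds* encodes the prostaglandin D2 synthase of the brain, an enzyme and lipid carrier that meningeal cells, choroid plexus and oligodendrocytes secrete into the cerebrospinal fluid. In WT cerebella it was at 682, 715 and 467 CPM, and in *Snx14*-KO cerebella at 1565, 1458 and 1631 CPM. In WT cortices it was at 445, 345 and 432 CPM, and in *Snx14*-KO cortices at 562, 651 and 562 CPM. In both tissues all *Snx14*-KO mice lay above all WT mice, by a wider margin in cerebellum. The common log2 fold change was 0.93 (SE 0.141, edgeR adjusted p = 0.0400), with 1.32 in cerebellum and 0.54 in cortex, and the difference between the tissues did not pass its own test (adjusted p = 0.396 for the edgeR interaction).

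*Eln* encodes tropoelastin, the core of elastic fibres in vessel walls and meninges. It was at 7.27, 11.1 and 7.99 CPM in WT and at 14.5, 18.1 and 15.8 CPM in *Snx14*-KO cerebella. In cortex it was at 5.20, 5.63 and 4.49 CPM in WT and at 10.1, 13.1 and 7.44 CPM in *Snx14*-KO mice. The 2 tissues were alike in the size of the difference, with 0.88 in cerebellum and 1.00 in cortex. The common log2 fold change was 0.93 (SE 0.142, edgeR adjusted p = 0.0400), a level 1.91 times that of WT.

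*Cyp2j12*, a cytochrome P450 of the family that oxidizes arachidonic acid and other fatty acids, fell more than *Gm20537* among the 3 genes that edgeR called lower, and less than *Snx14*. Its levels were low, at 4.08 to 5.94 CPM in WT and 3.06, 2.75 and 2.16 CPM in *Snx14*-KO cerebella. In cortex they were 3.18, 3.75 and 3.30 CPM in WT and 1.56, 1.21 and 1.79 CPM in *Snx14*-KO mice. The groups did not overlap in either tissue. The common log2 fold change was -1.03 (SE 0.157, edgeR adjusted p = 0.0400), with -0.91 in cerebellum and -1.17 in cortex. *Gm20537*, with -0.62 (SE 0.0858, edgeR adjusted p = 0.0336), is not a separate measurement, since 88.1% of its exon bases lie over exons of *Snx14* or *Syncrip* and read pairs there were counted for each gene.

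**Figure D1:**
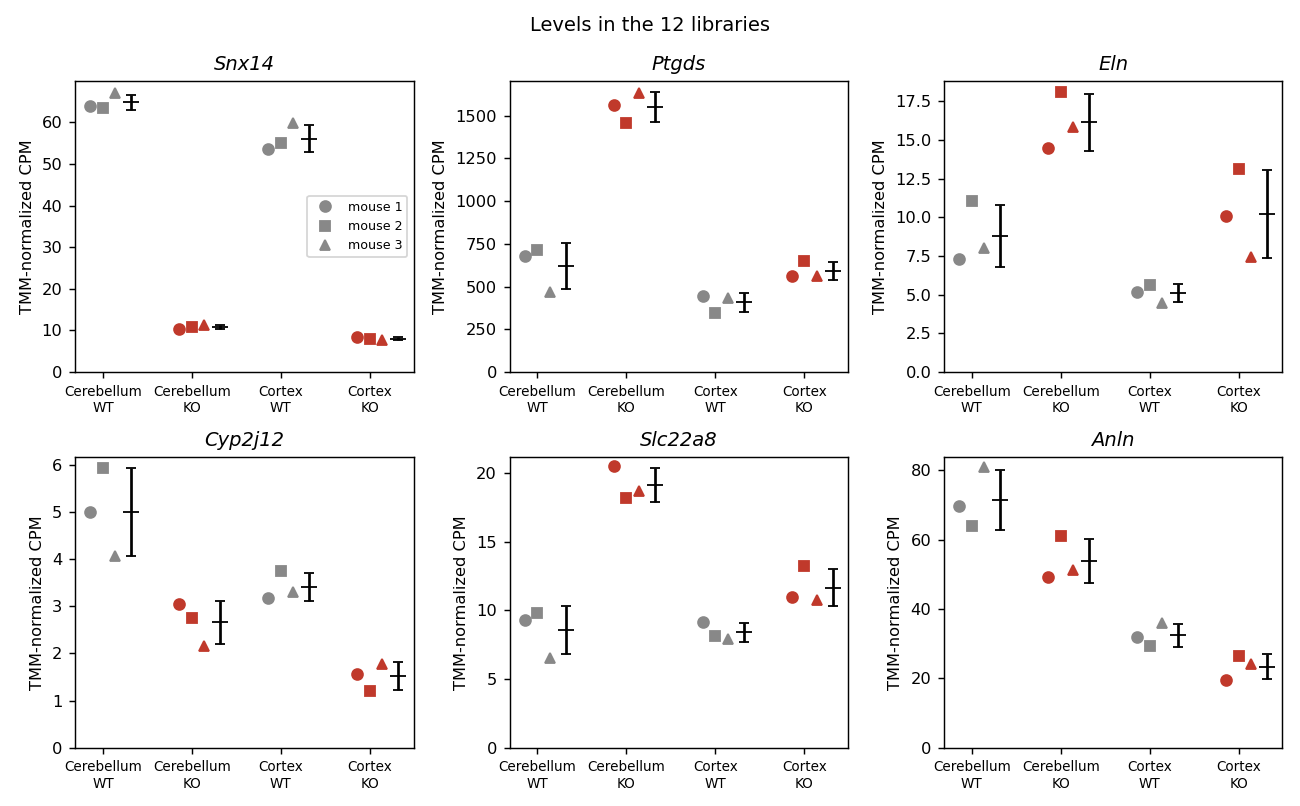
TMM-normalized CPM of 6 genes in the 12 libraries, with 1 panel for each gene, a symbol for each mouse, WT in grey, *Snx14*-KO in red, and a bar for the mean ± SD of the 3 mice. In every panel the *Snx14*-KO and WT mice do not overlap in either tissue, with *Ptgds* at 467 to 715 CPM in WT and 1458 to 1631 CPM in *Snx14*-KO cerebella and at 345 to 445 and 562 to 651 CPM in cortices.

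Of the 5 calls, only that of *Snx14* held under every alternative. With the mouse as a random block in voom and limma, which takes account of the 2 tissues of a mouse, 3 genes were called, *Snx14*, *Gm20537* and *Ptgds*. The adjusted p was then 0.04998 for *Ptgds*, 0.0503 for *Eln* and 0.0681 for *Cyp2j12*. With the level of *Xist* as a covariate, 2 genes were called, *Snx14* and *Gm20537*. Without *Snx14*-KO cortex 2 and *Snx14*-KO cerebellum 3, the only call was *Snx14*. The size of the effect moved less. With 1 library or 1 mouse left out, the common log2 fold change was 0.81 to 1.00 for *Ptgds*, 0.78 to 1.08 for *Eln* and -1.11 to -0.92 for *Cyp2j12*.

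The genes with the next smallest p among those higher in both tissues missed the adjusted threshold in edgeR and passed it in DESeq2. *Foxc1*, a forkhead transcription factor of meningeal and vascular mesenchyme, was at 3.55, 5.30 and 3.81 CPM in WT and 7.98, 8.98 and 8.39 CPM in *Snx14*-KO cerebella. In cortex it was at 3.61, 3.81 and 3.24 CPM in WT and 5.68, 8.28 and 4.82 CPM in *Snx14*-KO mice. Its groups did not overlap in either tissue, and its common log2 fold change was 0.91 (adjusted p = 0.0602 in edgeR and 3.57e-05 in DESeq2). *Slc22a8*, an organic anion transporter of brain barriers, was at 9.33, 9.80 and 6.54 CPM in WT and 20.5, 18.2 and 18.7 CPM in *Snx14*-KO cerebella. In cortex it was at 9.18, 8.10 and 7.90 CPM in WT and 11.0, 13.2 and 10.8 CPM in *Snx14*-KO mice. Its common log2 fold change was 0.83 (adjusted p = 0.0744 in edgeR and 2.73e-05 in DESeq2). It was called in edgeR when the counts of each mouse were summed over its tissues (adjusted p = 0.0255), a fit that gave 10 genes higher (0.0492%) and 1 lower (0.00492%). Of the 5 calls above, that fit kept *Snx14* and *Ptgds* and lost *Eln* (adjusted p = 0.0722 in edgeR), *Gm20537* (0.0747) and *Cyp2j12* (0.0985). Beside *Slc22a8* it gained *Aebp1*, *Aldh1a2*, *Col1a2*, *Fmod*, *Nespas*, *Slc22a6*, *Slc7a11* and *Vtn*, all higher.

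The other 11 of the 15 genes with the smallest p in this direction had log2 fold changes from 0.24 to 1.69 and adjusted p from 0.169 to 0.225 in edgeR. *Cd74*, the invariant chain of MHC class II, had 1.18, and *Fcgrt*, the neonatal Fc receptor, had 0.32. *Cd74* was at 1.89 to 3.38 CPM in WT and 6.45 to 6.88 CPM in *Snx14*-KO cerebella. In *Snx14*-KO cortices it was at 3.06, 7.18 and 2.92 CPM, so mouse 2 stood above the other two, and in WT cortices it was at 1.82 to 2.60 CPM. *Ddr2*, a collagen receptor, had 0.63. *Aebp1*, a secreted protein that binds collagen, had 1.06 and was called in edgeR on counts summed per mouse (adjusted p = 0.000137). Its groups overlapped in cortex, at 9.87 to 13.7 CPM in WT and 12.4, 36.1 and 15.4 CPM in *Snx14*-KO mice. *Slc47a1*, a transporter that exports organic cations, was at 1.30, and *Gstp1*, which conjugates glutathione, at 0.24. *Gstp1* had the narrowest spread, at 61.5 to 64.3 CPM in WT and 76.1 to 79.2 CPM in *Snx14*-KO cerebella, and 65.5 to 68.7 CPM in WT and 72.4 to 79.0 CPM in *Snx14*-KO cortices. *Met*, the receptor of hepatocyte growth factor, was near 0 in cerebellum, at 0.167 to 0.386 CPM in all 6 libraries, so its 0.57 rests on cortex, where it was at 17.1 to 19.1 CPM in WT and 22.2 to 29.4 CPM in *Snx14*-KO mice. *Tspan8*, *Galnt12*, *Cped1* and *Ano1* had 1.69, 1.16, 0.94 and 1.08. As these genes were picked for a small p of the common effect, that their groups seldom overlap is no evidence of its own.

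The genes with the smallest p among those lower in both tissues had smaller log2 fold changes. After the 3 that were called, the other 12 ranged from -0.57 to -0.21, with adjusted p from 0.167 to 0.243 in edgeR and under 0.05 in DESeq2. *Grk5*, a kinase that switches off G protein-coupled receptors, was at 30.04 to 31.7 CPM in WT and 22.8 to 24.5 CPM in *Snx14*-KO cerebella, and at 25.5 to 26.8 and 21.9 to 22.8 CPM in cortices (log2 fold change -0.30). *Clgn*, a chaperone of the endoplasmic reticulum, was at 16.8 to 19.7 CPM in WT and 12.2 to 15.3 CPM in *Snx14*-KO cerebella, and at 16.8 to 18.3 and 12.7 to 13.9 CPM in cortices (log2 fold change -0.41). Neither gene's groups overlapped.

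*Anln*, which encodes the cytoskeletal scaffold anillin, was at 69.7, 64.0 and 80.9 CPM in WT and 49.1, 61.1 and 51.3 CPM in *Snx14*-KO cerebella. In cortex it was at 31.8, 29.3 and 36.0 CPM in WT and 19.5, 26.5 and 24.1 CPM in *Snx14*-KO mice, for a common log2 fold change of -0.44. *Trf*, the iron carrier transferrin, was at 765 to 882 CPM in WT and 673 to 754 CPM in *Snx14*-KO cerebella, and at 211 to 256 and 166 to 187 CPM in cortices. Its log2 fold change was -0.32, but 63.5% of its exon bases are shared with *Gm20425*, which is also in this group at -0.30. The remaining genes were *Pde1c*, a cyclic nucleotide phosphodiesterase, at -0.47, the acetyltransferase *Kat2b* at -0.26, the spectrin gene *Sptb* at -0.21, the histone gene *Hist2h2be* at -0.38, *Prr5l*, which encodes a protein that binds mTORC2, at -0.42, *Cd59a*, which encodes an inhibitor of complement, at -0.57, and the miRNA host gene *Mir670hg* at -0.53.

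Over all genes the within-tissue effects matched in direction only a little more often than not. Of 19329 genes with a nonzero effect in both tissues, 10496 (54.3%) had the same direction, 4935 higher in both (25.5% of those tested) and 5561 lower in both (28.7%). Among the 2521 genes with an unadjusted p under 0.05 in at least 1 tissue, the share was 62.0%. Leaving out *Snx14*-KO mouse 2 gave 51.9% over all genes, and leaving out any 1 mouse gave 51.9% to 55.5%. The 2 tissues of a mouse share that mouse, so these shares carry no test.

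Where the differences were larger, a shared direction was more common than an opposite one. An unadjusted p under 0.05 in both tissues was reached by 83 genes that were higher in both (0.428%), 47 that were lower in both (0.243%) and 17 that went opposite ways (0.0877%). All 3 *Snx14*-KO mice lay above all 3 WT mice in both tissues for 102 genes (0.526%) and below them in both for 88 genes (0.454%), while 72 genes (0.372%) were above in one tissue and below in the other. Within a single tissue, the *Snx14*-KO mice lay above the WT mice for 6.46% of genes and below for 6.14% in cerebellum, and above for 4.58% and below for 4.70% in cortex.

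**Figure D2:**
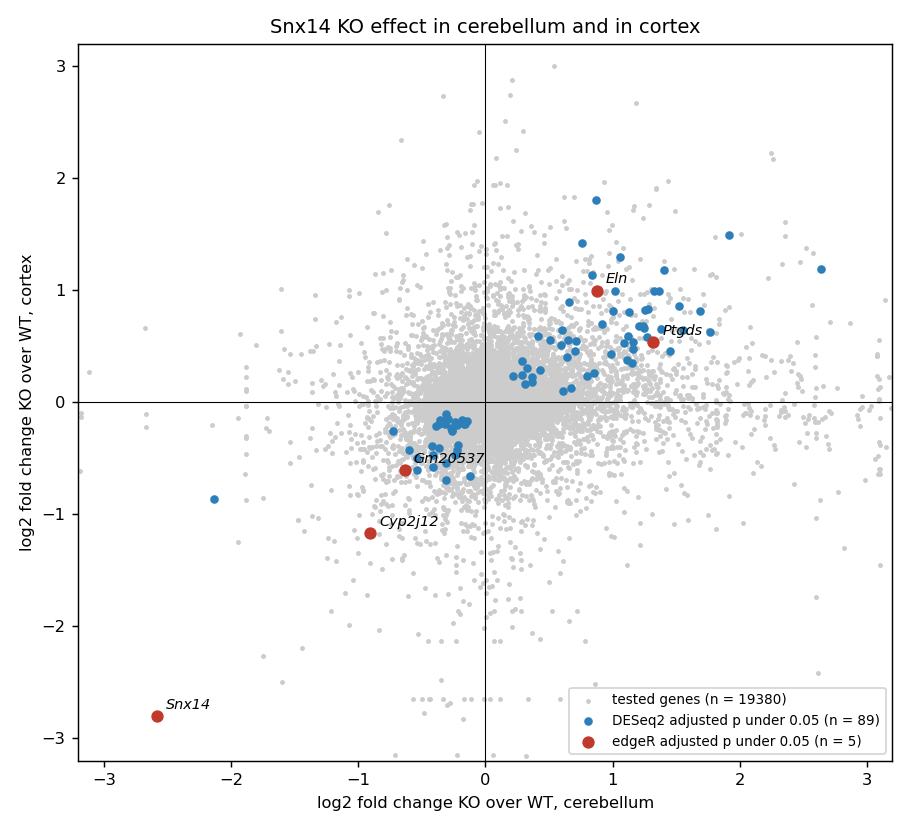
Within-tissue log2 fold change of *Snx14*-KO over WT in cerebellum (x axis) and cortex (y axis) for the 19380 genes tested, with genes called for the common effect by DESeq2 in blue and by edgeR in red; 68 genes lie outside the axes. *Snx14* is alone at the lower left with -2.58 and -2.80, and the 89 genes called by DESeq2 lie in the quadrants of shared direction, which the choice by common effect favours.

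The 89 genes that DESeq2 called, in a fit that also took the libraries as independent, gave a wider view of the common effect. By construction they favour a shared direction, and the 55 higher and 34 lower genes each had the same direction in both tissues. The higher genes had a median log2 fold change of 1.00 in cerebellum and 0.59 in cortex, and 44 of the 55 had the larger value in cerebellum. The lower genes had medians of -0.31 and -0.32. Of the higher genes, 45 exceeded 0.50 on the log2 scale, against 8 of the lower genes. Each of the 89 had an unadjusted p of at most 0.00308 in edgeR. With the mouse as a random block, voom and limma called only *Snx14*, *Gm20537* and *Ptgds* of them. In that fit the adjusted p was 0.165 for *Gstp1* and 0.244 for *Cd59a*, against 0.00230 and 0.00901 in DESeq2.

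Named after their values were seen, the higher genes of DESeq2 beyond those above included some vessel genes. Of the vessel lists below, DESeq2 called 1 of 12 endothelial genes and 1 of 9 genes of pericytes and smooth muscle. *Vwf*, the clotting factor of endothelium, had 0.77 (DESeq2 adjusted p = 0.0166), *Cdh5*, the cadherin of endothelial junctions, 0.55 (DESeq2 adjusted p = 0.0493) and *Vtn*, vitronectin, which pericytes make in brain, 0.53 (DESeq2 adjusted p = 0.0126). The macrophage genes *Stab1* and *F13a1*, a scavenger receptor and the A chain of a clotting factor, had 0.96 and 1.18. DESeq2 called 0 of the 16 genes of the microglia and macrophage list below. *Slc7a11*, the cystine transporter that feeds glutathione synthesis, had 0.51, made of 0.80 in cerebellum and 0.24 in cortex. *Fabp5*, a fatty acid carrier, had 0.35, made of 0.61 in cerebellum and 0.10 in cortex. Among the lower genes was *Itpr1*, the calcium release channel of the endoplasmic reticulum that is most abundant in Purkinje cells, at -0.25. *Cplx2*, which acts in synaptic vesicle fusion, had -0.26. The nuclear RNA *Malat1* had -0.39, made of -0.12 in cerebellum and -0.66 in cortex. *St18* and *Tmem88b*, both known from oligodendrocytes, had -0.45 and -0.35. DESeq2 called 0 of the 14 genes of the oligodendrocyte list below.

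The lists of marker and pathway genes that follow were chosen with earlier results of these data known. Some hold genes named above for a small p, so members that go the same way are no evidence of their own. At an unadjusted p under 0.05 in edgeR, 4.63% of all genes tested were higher and 3.38% lower. DESeq2 called 0.284% higher and 0.175% lower. Over all genes tested, 47.8% were higher and 52.2% lower, with a median log2 fold change of -0.01. The list that stood farthest from that median on the higher side held 19 genes of meningeal fibroblasts, the cells that lay down the connective tissue of the brain's coverings. All 19 were higher, with a median of 0.87 (1.00 in cerebellum and 0.65 in cortex), and 18 were higher in both tissues. An unadjusted p under 0.05 was reached by 15, none passed the adjusted threshold in edgeR, and DESeq2 called 6. Those were *Foxc1*, *Slc22a6*, *Aldh1a2*, *Crabp2*, *Islr* and *Slc6a20a*. *Col1a1* and *Col3a1*, the chains of fibrillar collagen, had 1.17 and 1.42.

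The per-library values of this list were uneven. Its score, the mean log2(CPM + 1) of the list minus the average of the 6 libraries of that tissue, was -0.89, -0.05 and -0.39 in WT and 0.47, 0.38 and 0.48 in *Snx14*-KO cerebella. In cortex the score was -0.02, -0.42 and -0.36 in WT and -0.07, 0.97 and -0.09 in *Snx14*-KO mice. The summed level of the list was 276 to 615 CPM in WT and 734 to 779 CPM in *Snx14*-KO cerebella, and 252 to 330 CPM in WT and 307 to 665 CPM in *Snx14*-KO cortices. The cerebella separated by genotype, while in cortex only *Snx14*-KO mouse 2 lay above all WT libraries. The median over the list was 0.64 without that library, 0.60 without both libraries of that mouse and 0.59 without it and *Snx14*-KO cerebellum 3.

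Genes of extracellular matrix were higher beside the meningeal markers, and collagen chains are in both groups of lists. Of 19 genes of matrix and elastic fibres, 18 were higher, 8 with an unadjusted p under 0.05, and the median was 0.46. *Eln* was the only one called by edgeR, and DESeq2 added *Vtn*. *Fn1*, fibronectin, had 0.98, *Emilin1*, an elastic fibre glycoprotein, 0.85 and *Fbln1*, fibulin, 0.51. Of 42 collagen chains tested, 32 were higher and 10 lower, with a median of 0.25 (0.15 without *Snx14*-KO mouse 2), and DESeq2 called *Col12a1* at 0.73 and *Col6a3* at 1.09. The matrix list scored 0.72 in *Snx14*-KO cortex 2 and -0.09 and -0.21 in the other two *Snx14*-KO cortices, and its median was 0.24 without *Snx14*-KO cortex 2 and 0.22 without both libraries that stood apart. The part of meningeal tissue in the levels of *Ptgds*, *Eln* and *Foxc1* was not tested.

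Of 18 genes of the IGF and BMP system, growth factors with their binding proteins, 15 were higher and 8 had an unadjusted p under 0.05, with a median of 0.30. DESeq2 called *Bmp4* at 0.84 and *Igfbp5* at 0.33. Of 16 genes of prostaglandin and retinoid handling, 14 were higher, with a median of 0.22. *Ptgds* was called by edgeR, and DESeq2 added *Aldh1a2*, which makes retinoic acid, at 0.98 and *Crabp2*, which carries it in the cell, at 1.06. Both *Aldh1a2* and *Crabp2* are also in the list of meningeal fibroblasts, so these calls are not separate from those above. The cyclooxygenases upstream of *Ptgds* did not pass, with *Ptgs1* at 0.20 and *Ptgs2* at -0.13.

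**Figure D3:**
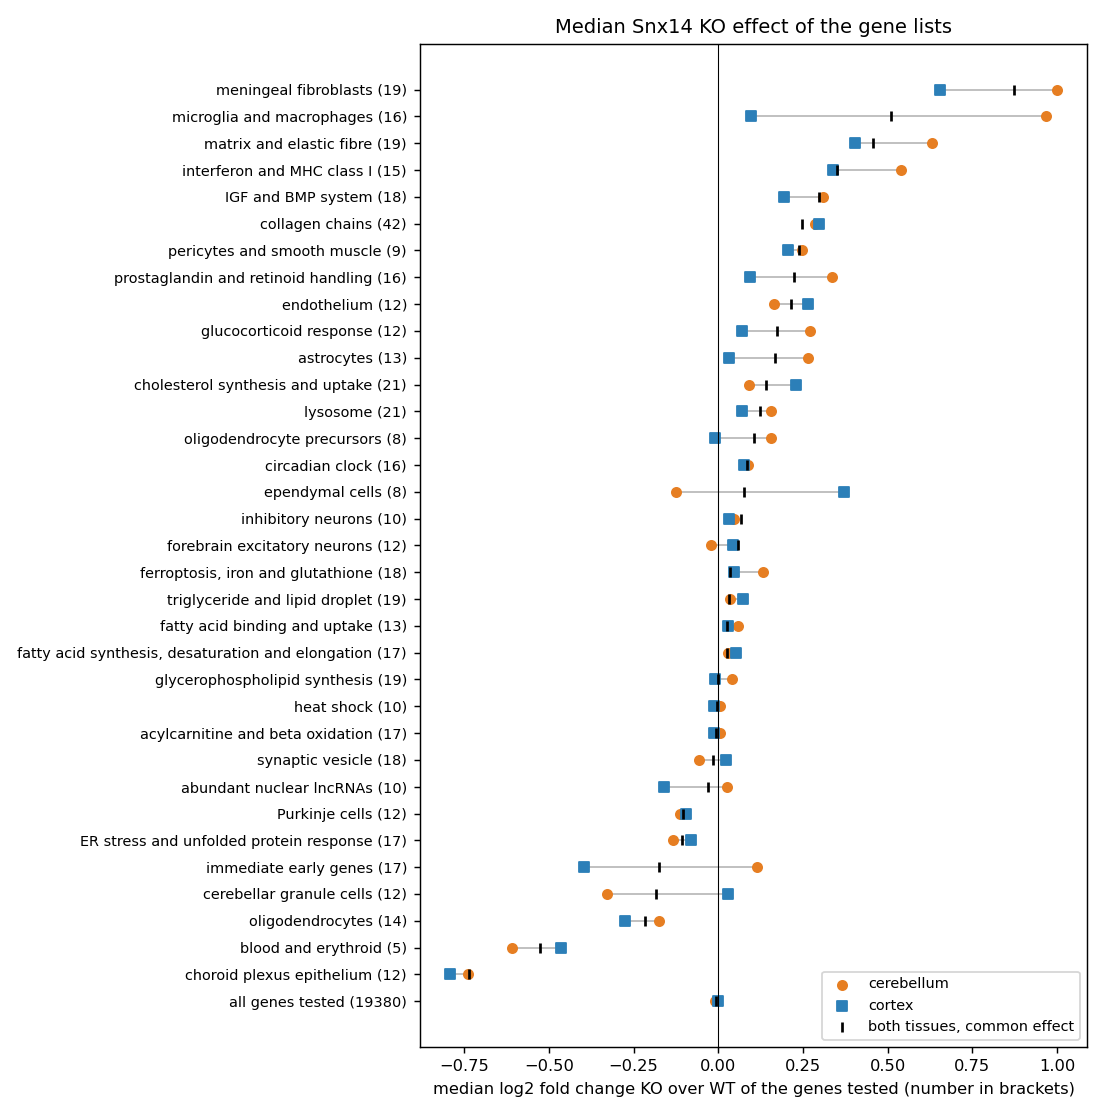
Median log2 fold change of *Snx14*-KO over WT for each list, in cerebellum (orange circles), in cortex (blue squares) and for the common effect (black ticks), with the number of genes tested in brackets and all genes at the bottom. Meningeal fibroblast genes are at the top with a common median of 0.87, choroid plexus genes are lowest at -0.74, and the tissues are far apart for microglia and macrophages, with 0.97 in cerebellum and 0.10 in cortex.

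Vessel cell markers had small positive medians, and none passed the adjusted threshold in edgeR. DESeq2 called 1 endothelial gene, *Cdh5*, and 1 gene of pericytes and smooth muscle, *Vtn*. All 12 endothelial genes were higher, 5 with an unadjusted p under 0.05, with a median of 0.22 (0.16 in cerebellum and 0.27 in cortex). Their score was highest in both tissues of *Snx14*-KO mouse 2, at 0.25 and 0.27, and below 0 in both of *Snx14*-KO mouse 3, and the median was 0.12 without *Snx14*-KO mouse 2. All 9 tested genes of pericytes and smooth muscle were higher, 5 with an unadjusted p under 0.05, with a median of 0.24. The summed level of this list was 161 to 205 CPM in WT and 228 to 240 CPM in *Snx14*-KO cerebella, and 123 to 175 CPM in WT and 172 to 187 CPM in *Snx14*-KO cortices. These ranges were apart in cerebellum and overlapped in cortex. The mean log2 level of the list, which weights its genes equally, overlapped in cerebellum too, where the WT libraries were at -0.34, 0.10 and -0.08 and the *Snx14*-KO libraries at 0.19, 0.08 and 0.05 from the tissue average.

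Microglia and macrophage genes had a larger median in cerebellum than in cortex, and that difference between the tissues was not tested for the list. Of 16 genes, 15 had a higher common effect and 7 an unadjusted p under 0.05, and the median was 0.51, made of 0.97 in cerebellum and 0.10 in cortex. The score was 1.11 in *Snx14*-KO cerebellum 3 against -0.14 and 0.07 in the other two, and without that library the common median was 0.20, and without both libraries that stood apart 0.14. No gene of the list was called by edgeR or DESeq2. Interferon and MHC class I genes were highest in the libraries that stood apart, with scores of 0.68 in *Snx14*-KO cerebellum 3 and 0.59 in *Snx14*-KO cortex 2. Of these 15 genes, 14 were higher and 8 had an unadjusted p under 0.05, with a median of 0.35 that was 0.23 without *Snx14*-KO cerebellum 3 and 0.11 without both libraries. Astrocyte genes had a median of 0.17, with 11 of 13 higher, and *Gfap*, the filament of reactive astrocytes, had the smallest p among them. Their score was 0.24 in *Snx14*-KO cerebellum 3 and 0.05 and 0.06 in the other two, and the median was 0.10 without WT cerebellum 3 and 0.08 without either *Snx14*-KO mouse 3 or WT mouse 3.

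All 14 genes of oligodendrocytes, the myelinating glia, had a lower common effect, 13 of them in both tissues, with a median of -0.22 (-0.17 in cerebellum and -0.27 in cortex). An unadjusted p under 0.05 was reached by 8, and none passed in edgeR or DESeq2. *Myrf*, the transcription factor of myelination, had -0.29, *Ermn*, a cytoskeletal protein of myelin, -0.32 and *Mal*, a myelin proteolipid, -0.37. *Mbp*, a structural protein of myelin, had -0.07. The score was -0.52 in *Snx14*-KO cortex 2, where meningeal genes were highest, and -0.03 and 0.04 in the other two *Snx14*-KO cortices, all below the WT cortices at 0.14 to 0.18. In cerebellum the scores overlapped, at 0.23, 0.10 and -0.16 in WT and -0.08, 0.01 and -0.10 in *Snx14*-KO mice, and WT cerebellum 3 was the lowest. Without *Snx14*-KO cortex 2 the median was -0.14, and without both libraries that stood apart -0.13. Of 8 precursor genes of this lineage, 6 were higher, with a median of 0.10 that was 0.01 without *Snx14*-KO mouse 3.

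**Figure D4:**
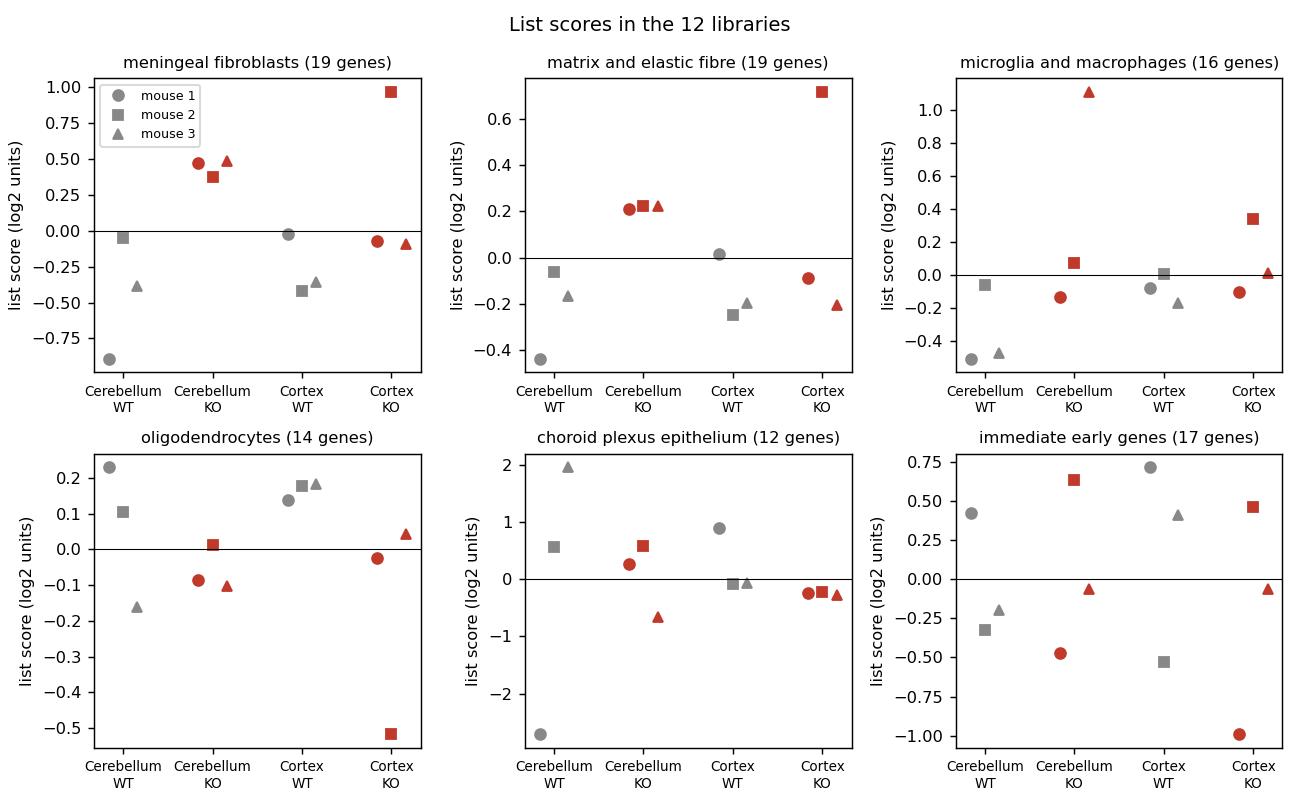
Scores of 6 lists in the 12 libraries (y axis, mean log2(CPM + 1) minus the average of the 6 libraries of that tissue), with a symbol for each mouse, WT in grey and *Snx14*-KO in red. *Snx14*-KO cortex 2 stands apart at 0.97 for meningeal fibroblasts and -0.52 for oligodendrocytes, *Snx14*-KO cerebellum 3 stands at 1.11 for microglia and macrophages, and WT cerebellum 1 stands at -2.71 for choroid plexus.

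Among Purkinje cell genes, 11 of 12 had a lower common effect (median -0.10), and 3 had an unadjusted p under 0.05, among them *Itpr1* and *Rgs8*, a regulator of G protein signalling. *Itpr1* passed in DESeq2 (adjusted p = 0.0439), and *Calb1*, calbindin, had 0.00. As *Itpr1* had -0.26 in cerebellum and -0.24 in cortex, its difference was not limited to the tissue that holds Purkinje cells. Without *Snx14*-KO cerebellum 3, whose Purkinje score was -0.26 against -0.01 and 0.08 in the other two *Snx14*-KO cerebella, the median of this list was -0.04. Of 12 granule cell genes, 11 had a lower common effect, with a median of -0.18, and 3 had an unadjusted p under 0.05. That median was made of -0.33 in cerebellum, where all 12 were lower, and 0.03 in cortex, where these cells are absent. Forebrain excitatory and inhibitory neuron genes had medians of 0.06 and 0.07, which without *Snx14*-KO mouse 2 were 0.11 and 0.01. With counts summed per mouse, the first was -0.05. Of 18 synaptic vesicle genes, 11 were lower, with a median of -0.02. At an unadjusted p under 0.05, 4 were lower and 1 higher, and DESeq2 called *Cplx2*. Their median was 0.02 without WT mouse 1 and -0.06 without *Snx14*-KO mouse 1, so its direction was not settled.

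Of 21 genes of cholesterol synthesis and uptake, 20 were higher, with a median of 0.14 (0.09 in cerebellum and 0.23 in cortex). An unadjusted p under 0.05 was reached by 5, among them *Fdft1* at 0.24, *Insig1* at 0.23 and *Sqle* at 0.26. None passed in edgeR or DESeq2, and the median was 0.10 without the libraries that stood apart, 0.24 without WT mouse 1 and 0.23 without *Snx14*-KO mouse 1. The medians were 0.03 over 17 genes of fatty acid synthesis, 0.03 over 13 of fatty acid binding and uptake, 0.03 over 19 of triglycerides and lipid droplets, 0.00 over 19 of glycerophospholipid synthesis and -0.01 over 17 of acylcarnitines and beta oxidation, where no gene had an unadjusted p under 0.05. The fatty acid synthesis list had 3 genes higher and 1 lower at an unadjusted p under 0.05, *Fads2*, *Srebf1*, *Fasn* and *Elovl7*, at 0.20, 0.16, 0.15 and -0.30. Its median was 0.009 without WT cortex 1 and 0.047 without WT cortex 3. That of fatty acid binding and uptake was 0.048 without *Snx14*-KO cerebellum 2. The lipid droplet list had 2 higher and 1 lower, *Plin4*, *Gpam* and *Plin3*, at 1.12, 0.17 and -0.30, and its median was 0.07 without WT cerebellum 3. In those 5 lists, *Fabp5* was the only gene called by DESeq2, and none was called by edgeR. Lysosomal genes had a median of 0.12, with 17 of 21 higher. Their score was 0.33 in *Snx14*-KO cerebellum 3 and -0.08 and 0.01 in the other two, and the median was 0.07 without that mouse and 0.05 without both libraries that stood apart.

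Genes of iron, glutathione and ferroptosis were split. Of 18, 10 were higher and 8 lower, with 6 and 2 at an unadjusted p under 0.05. Their median of 0.03 was 0.01 without WT cerebellum 3, 0.08 without WT cerebellum 2 or *Snx14*-KO cortex 1, and 0.10 without WT mouse 2 or *Snx14*-KO mouse 1. *Slc7a11* was higher and *Trf* lower in DESeq2 (adjusted p = 0.0127 and 0.000940). *Hmox1*, which breaks down haem, had 0.65 and *Cp*, ceruloplasmin, 0.44. The ferritin chains had opposite values, with 0.22 for the light chain *Ftl1* and -0.22 for the heavy chain *Fth1*. Of 17 gene IDs of the unfolded protein response, 11 were lower, with a median of -0.11, and the 1 gene with an unadjusted p under 0.05 was higher. The median was -0.03 without WT cerebellum 3 and 0.05 without WT mouse 3, so its direction rests on that mouse. Heat shock genes were even, with 5 of 10 higher. Circadian genes had a median of 0.09, which was 0.04 without WT cortex 3 and -0.03 without WT mouse 3. Glucocorticoid response genes had a median of 0.17, which was 0.06 without WT cerebellum 3, 0.08 without *Snx14*-KO cerebellum 3, 0.28 without WT cerebellum 2 and 0.01 without *Snx14*-KO mouse 3.

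All 12 choroid plexus genes were lower, with a median of -0.74, but their summed level ran from 86.2 to 7636 CPM among WT cerebella, and 1 gene had an unadjusted p under 0.05. The median was 0.04 without WT cerebellum 3, -0.02 without WT mouse 3 and -1.20 without WT cerebellum 1, and voom and limma with the mouse as a block gave 0.29, so the direction was not settled. The 5 blood genes were lower in both tissues, 3 with an unadjusted p under 0.05, and their median of -0.53 was -0.33 without WT cerebellum 2 and -0.20 without WT mouse 2. Of 17 immediate early genes, 16 had a lower common effect, with 0 at an unadjusted p under 0.05 in edgeR and 0 called by DESeq2. Their median was 0.12 in cerebellum and -0.40 in cortex, and the common median of -0.18 ran from -0.63 without *Snx14*-KO mouse 2 to 0.10 without *Snx14*-KO mouse 1, and was 0.07 without WT mouse 1 and 0.02 without WT cortex 1, so the direction was not settled. Abundant nuclear RNAs had a median of -0.03, which was -0.11 without WT cerebellum 2 or without WT mouse 2. Of 18 tested genes within 1 Mb of *Snx14*, 11 were higher and 7 lower, and *Gm20537* was the only one called.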

How the data were processed

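Counts per gene were used as the authors deposited them, without normalization. Trimming, STAR alignment to GRCm38 and counting of read pairs per gene with featureCounts 2.0.1 had been done by the authors. The libraries are described as strand-specific, but the counts ignore strand, and a pair over several genes was counted for each, so overlapping genes share counts. Each library lists 81881 features, of which 55536 were genes. The 26248 numbered features and 97 spike-in features were left out. The 37 mitochondrially encoded genes are listed at 0 counts in every library.

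Counts were tested in edgeR 4.0.16 (R 4.3.3) with filterByExpr over the 4 groups, TMM normalization, a model with terms for tissue and genotype, the quasi-likelihood test and Benjamini-Hochberg adjustment, at a threshold of 0.05 and a second of 0.50 on the log2 scale. The direction in each tissue came from a fit of the 4 groups. DESeq2 1.42.0 and limma 3.58.1 served as alternatives, and the edgeR model and DESeq2 were tested on simulated data. Gene symbols matched 55450 gene IDs. The named genes were *Snx14*, the 15 genes of smallest p in each direction with the same sign in both tissues, and 3 genes of each list where a result turns on them; others were named after their values were seen. The comparisons and lists were chosen with earlier results of these data known.

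Replicates differed beyond sampling noise (chi-square per gene at least 4.72). The mouse name in the labels pairs the tissues, and the residuals of the 2 tissues of a mouse correlated at 0.103 to 0.539 over 12085 genes. WT and *Snx14*-KO libraries of the same number are different mice, but of the same sex by *Xist* and Y-linked counts. Their correlations ran from -0.085 to 0.296 and were highest for mouse 1, at 0.244 in cerebellum and 0.296 in cortex. Some genes of the lists are not reported here by name.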

Additional observations from a re-analysis of the deposited data

How the results depend on the processing

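Of the 30 genes of smallest p, 15 in each direction with *Snx14* included, 0 changed direction under any of the 28 alternatives. They were picked from these libraries for a small p and a shared direction, so this count was nearly fixed in advance. It is no support of its own, and other genes named above were not part of it. *Snx14* stayed between -2.71 and -2.65 with 1 library or mouse left out. The number of genes called did change. Against 2 higher and 3 lower in edgeR, DESeq2 gave 55 higher and 34 lower, testing 34466 genes without a filter on low counts 316 and 83, the mean of the 2 within-tissue contrasts 6 higher, counts summed per mouse 10 and 1, and *Xist* as a covariate 0 higher (816 at an unadjusted p under 0.05 in edgeR). The causes were not tested. With 1 library or mouse left out, 0 to 3 genes were higher and 1 to 2 lower, with 706 to 1036 higher at an unadjusted p under 0.05, and in 12 of these 18 settings *Snx14* was the only call. Chosen after seeing the data, leaving out *Snx14*-KO cortex 2 and *Snx14*-KO cerebellum 3 gave 0 higher and 1 lower (565 higher at an unadjusted p under 0.05 in edgeR).

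With the mouse as a random block, voom and limma called 1 gene higher and 2 lower, against 4 and 3 without the block, an alternative added after seeing the data. The consensus correlation of the block was 0.057. With the mouse number as a fixed block, which also carries sex, edgeR called 2 higher and 2 lower. *Foxc1* was gained (adjusted p = 0.0294 in edgeR), and *Ptgds* and *Cyp2j12* were lost (0.1105 each). On counts summed per mouse, *Foxc1* did not pass (adjusted p = 0.0809 in edgeR). The share of genes with the same direction in both tissues was 62.0% among genes with an unadjusted p under 0.05 in at least 1 tissue and 51.9% to 55.5% with 1 mouse left out (51.9% without *Snx14*-KO mouse 2 and 52.6% without WT mouse 3), against 54.3%. The number of mice, 6, limits the precision of every value.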
